A study of Mus musculus with 12 samples.

Results

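The Fc receptor genes examined here were Fcgr1, Fcgr2b, Fcgr3, Fcgr4, Fcer1g and Fcgrt, chosen by name, and they were 6 of 35976 genes in the count table. All 6 were among the 15334 genes that passed the filter on low counts. Polyadenylated RNA was sequenced from CD45.2-positive cells sorted from the bone marrow of C57BL/6 mice, in 4 groups of 3 libraries. BN1 cells carried the fusion BRD9-NUTM1, MA9 cells carried MLL-AF9 and ME cells carried MLL-ENL, while WT was normal marrow, whose genotype is listed as CD45.2-positive with no fusion. No group was treated. The sources used here do not give age, sex, how the fusions were introduced, or how many animals or clones stand behind a group. Since libraries of 1 group may share an animal, the p-values describe the scatter among libraries, which may be technical.

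Receptors for the constant part of antibodies let phagocytes, natural killer cells, mast cells and B cells respond to what antibodies have coated. In the mouse, Fcgr1 (CD64) encodes the high-affinity IgG receptor, while Fcgr3 (CD16) and Fcgr4 encode activating receptors of lower affinity for IgG. All of these signal through the common gamma chain encoded by Fcer1g, whose cytoplasmic tail carries an immunoreceptor tyrosine-based activation motif (ITAM) that recruits the kinase Syk. Fcgr2b (CD32) carries the opposite, inhibitory kind of motif and recruits the lipid phosphatase encoded by Inpp5d. Fcgrt encodes the heavy chain of the neonatal receptor FcRn, which pairs with beta-2 microglobulin and returns IgG and albumin from endosomes to the cell surface.

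Fcgr2b, Fcgr4 and Fcgr3 lie next to each other on mouse chromosome 1 within 105.4 kb, at chr1:170960558-170976071, chr1:171018926-171029761 and chr1:171051169-171065915 (GRCm38.p6, the mm10 assembly). Fcer1g lies 164 kb further along, at chr1:171229572-171234349. Fcgr1 is at chr3:96282909-96293969 and Fcgrt at chr7:45092993-45103822. All are protein-coding, Fcgr4 is on the plus strand and the other 5 are on the minus strand. The 150 bases before the first listed transcription start of each gene, from RefSeq on GRCm38.p6, are shown 5′ to 3′ on the strand of the gene, because 3 activating receptors that changed differently in the leukemias hold the same short stretch there. For Fcgr3 the 2 listed starts lie 6512 and 6521 bases inside the gene as located above, so its window is an internal one, and the outer edge of Fcgr3 was not examined. Capitals mark GAGGAA or its reverse complement TTCCTC, the core letters of sites bound by PU.1, a transcription factor of myeloid and B cells.
Fcgr1: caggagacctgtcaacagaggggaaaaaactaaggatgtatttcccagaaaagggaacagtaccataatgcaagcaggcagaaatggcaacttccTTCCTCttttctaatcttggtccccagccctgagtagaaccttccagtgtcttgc
Fcgr3: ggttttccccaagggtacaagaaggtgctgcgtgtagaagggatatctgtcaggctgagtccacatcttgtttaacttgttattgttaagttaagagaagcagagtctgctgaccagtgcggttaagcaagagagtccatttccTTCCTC
Fcgr4: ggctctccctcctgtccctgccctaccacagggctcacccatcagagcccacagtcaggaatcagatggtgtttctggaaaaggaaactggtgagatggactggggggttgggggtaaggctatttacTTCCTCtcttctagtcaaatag
Fcgr2b: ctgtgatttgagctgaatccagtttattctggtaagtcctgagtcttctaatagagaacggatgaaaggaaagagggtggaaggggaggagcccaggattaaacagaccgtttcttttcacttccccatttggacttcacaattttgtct
Fcer1g: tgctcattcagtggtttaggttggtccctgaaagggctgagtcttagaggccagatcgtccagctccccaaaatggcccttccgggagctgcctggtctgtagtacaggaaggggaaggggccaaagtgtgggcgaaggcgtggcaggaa
Fcgrt: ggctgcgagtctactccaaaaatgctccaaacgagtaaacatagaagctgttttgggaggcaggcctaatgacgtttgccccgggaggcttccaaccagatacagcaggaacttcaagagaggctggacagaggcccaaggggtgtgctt

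These stretches are chr3:96293970-96294119 for Fcgr1, chr1:171059404-171059553 for the first of 2 listed Fcgr3 starts, and chr1:171018776-171018925 for Fcgr4. Those of Fcgr2b, Fcer1g and Fcgrt are chr1:170976072-170976221, chr1:171234350-171234499 and chr7:45103823-45103972. The letters TTCCTC ended 50 bases before the start in Fcgr1, 17 bases before it in Fcgr4 and directly before the first listed start in Fcgr3, 10 bases before the other listed start. In the other 3 genes neither form of the motif was in this window. Of 32817 annotated mouse promoters, 4749 (14.5%) held it in the same window. A match of letters is a description and not evidence of a bound site.

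Library totals ran from 18292636 to 25732049 counts. Levels are CPM, the usual counts relative to library size, here scaled with TMM factors. Fold changes are edgeR estimates on the log2 scale ± approximate SE, with p adjusted by the Benjamini-Hochberg method over all 15334 genes and a threshold of 0.05. The SE was derived from the fold change and its test statistic, and it can be too small where a group has few counts. Ptprc, the gene of CD45, was read at 317 to 512 CPM in the leukemia libraries and at 942 to 1090 CPM in WT. In ME replicate 3 LOC101056014 and Lars2 together took 1.80% of counts, while no other library gave them over 0.0755%. That library stood apart from the other ME libraries, with mean chi-squares of 32.3 and 35.2 per gene between counts, where all other pairs of libraries of 1 group gave 2.005 to 7.51. Without it, 17 of the 18 fold changes of the 6 genes that involve ME kept their direction and their side of the threshold, and the exception was Fcgr4 against WT. The 12 neutrophil markers summed to 5420 to 5630 CPM in BN1 and to between 756 and 825 CPM in the MA9 and ME libraries, against 62600 to 65800 CPM in WT, and all 12 were lower in each leukemia. The 13 monocyte and macrophage markers summed to 7020 to 7410 CPM across BN1, 3030 to 3300 CPM across MA9 and 3760 to 4110 CPM across ME, against 2760 to 3130 CPM in WT, and none of either list was at 0 in any group. Of these 13 genes, 8 were higher and 5 lower in BN1 (median log2 fold change 0.36), 4 higher and 8 lower in MA9 (median -0.998), and 3 higher and 10 lower in ME (median -0.64), so the sums in MA9 and ME do not show the direction of most markers. Of all tested genes, 38.4% were called higher and 40.8% lower in BN1, 39.3% and 40.8% in MA9, and 39% and 40.2% in ME. Ly6c2 and F13a1 had large parts in the sums, at 1800.0 and 1396 CPM in ME, against 891 and 781 CPM in WT. Of the 9 B cell markers, which summed to 7.53 to 8.46 CPM across BN1, 19.3 to 20.5 CPM across MA9 and 2.08 to 2.44 CPM across ME, against 1190 to 1350 CPM in WT, Ms4a1 was at 0 in both MA9 and ME. The 7 NK cell markers summed to at most 1.41 CPM in any leukemia library, against 166 to 177 CPM in WT. The part of these shifts in marker levels in the results on Fc receptor genes was not tested, and fewer cells of a type and less RNA per cell cannot be told apart in these bulk libraries.

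Among the activating receptors, Fcgr1 was almost silent in both MLL leukemias. Its level was 1.56, 1.89 and 1.26 CPM in the BN1 libraries, 0.301, 0.216 and 0.243 CPM in MA9, and 0.145, 0.136 and 0.111 CPM in ME, against 20.8, 22.7 and 21.6 CPM in WT. No groups overlapped, and the order was WT, BN1, MA9 and ME from high to low. The means were 1.57 ± 0.31 CPM in BN1, 0.253 ± 0.044 CPM in MA9 and 0.131 ± 0.018 CPM in ME, against 21.7 ± 0.94 CPM in WT (SD, n = 3 each). The MA9 and ME values rest on 16 and 8 counts over the group, against 113 in BN1 and 1213 in WT. Fcgr1 fell relative to WT in each leukemia, with log2 fold changes of -3.79 ± 0.15 in BN1 (adjusted p = 7.1e-19, edgeR), -6.40 ± 0.21 in MA9 (adjusted p = 7.4e-21, edgeR) and -7.30 ± 0.24 in ME (adjusted p = 5.3e-21, edgeR). As a ratio of counts, it was 13.9-fold lower in BN1 (95% interval 11.5 to 17.0), 86.2-fold lower in MA9 (52.9 to 151) and 164-fold lower in ME (83.2 to 382), the exact intervals covering counting error only. For MA9 and ME these intervals are wider than the SE values imply, so those SE values understate the error.

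Fcgr3, which encodes the activating receptor CD16, was the most abundant Fc gamma receptor per length of transcript in every library, and its changes were small. It stood at 204, 212 and 211 CPM in the BN1 libraries, 274, 271 and 265 CPM in MA9, and 324, 314 and 323 CPM in ME, against 247, 230 and 244 CPM in WT. No groups overlapped, with ME highest, then MA9, WT and BN1. Fcgr3 fell by 0.20 ± 0.04 in BN1 relative to WT (adjusted p = 0.00013, edgeR), and rose by 0.17 ± 0.04 in MA9 (adjusted p = 0.00079, edgeR) and by 0.41 ± 0.04 in ME (adjusted p = 9.7e-10, edgeR). With library totals alone as the scale, the value in BN1 was -0.08 and was not called (adjusted p = 0.11). Its per-length level lay above that of 97.1% to 98.1% of 13875 genes in each of the 4 groups.

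Fcgr4, which encodes the other activating receptor of this cluster, was lower in BN1 and MA9. It stood at 19.7, 18.3 and 17.9 CPM in the BN1 libraries, 23.2, 24.8 and 23.9 CPM in MA9, and 43.0, 41.2 and 46.2 CPM in ME, against 47.1, 51.6 and 44.6 CPM in WT. The BN1 and MA9 libraries all lay below the ME and WT libraries, and ME overlapped WT. It fell relative to WT in BN1 (-1.36 ± 0.07, adjusted p = 8.4e-16, edgeR) and in MA9 (-0.995 ± 0.07, adjusted p = 6.7e-13, edgeR). In ME the difference was -0.14 ± 0.07 (95% interval -0.28 to 0.01, adjusted p = 0.072, edgeR). It was called in ME with DESeq2 (-0.20, adjusted p = 0.014), with RLE size factors (-0.20, adjusted p = 0.012), with the filter at 1 CPM (-0.15, adjusted p = 0.045), without WT replicate 3 (-0.18, adjusted p = 0.030) and without ME replicate 3 (-0.18, adjusted p = 0.037).

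Fcer1g, the gamma chain that these receptors need for surface expression and signalling, was lower in all 3 leukemias. It stood at 234, 249 and 255 CPM in the BN1 libraries, 181, 176 and 174 CPM in MA9, and 221, 199.7 and 223 CPM in ME, against 358, 361 and 373 CPM in WT. No groups overlapped, and WT was highest, followed by BN1, ME and MA9. The change relative to WT was -0.56 ± 0.05 in BN1 (adjusted p = 1.4e-11, edgeR), -1.04 ± 0.05 in MA9 (adjusted p = 2.4e-17, edgeR) and -0.76 ± 0.05 in ME (adjusted p = 2.4e-14, edgeR). The gene stayed among the most abundant per length, above 98.5% of the ranked genes in MA9 and 99.2% in WT.

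Fcgr2b, the inhibitory receptor, rose in all 3 leukemias and most in BN1. It stood at 208, 223 and 224 CPM in the BN1 libraries, 122, 125 and 123 CPM in MA9, and 144, 152 and 151 CPM in ME, against 97.6, 98.2 and 94.0 CPM in WT. No groups overlapped, with BN1 highest and WT lowest. Relative to WT it rose by 1.18 ± 0.05 in BN1 (2.26-fold, adjusted p = 4.6e-19, edgeR), by 0.35 ± 0.05 in MA9 (1.28-fold, adjusted p = 1.0e-07, edgeR) and by 0.62 ± 0.05 in ME (1.54-fold, adjusted p = 1.1e-12, edgeR). B cells, in which Fcgr2b is the usual Fc gamma receptor, gave marker sums of at most 20.5 CPM in any leukemia library.

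Fcgrt, the FcRn heavy chain, moved in opposite directions in BN1 and in the MLL leukemias. It stood at 37.6, 39.6 and 38.7 CPM in the BN1 libraries, 8.84, 9.15 and 8.21 CPM in MA9, and 9.14, 9.84 and 8.11 CPM in ME, against 25.4, 28.5 and 27.2 CPM in WT. Every BN1 library was above every WT library, and every MA9 and ME library was below, while MA9 and ME overlapped. It rose by 0.52 ± 0.08 in BN1 (1.43-fold, adjusted p = 1.3e-06, edgeR), fell in MA9 (-1.63 ± 0.09, 3.09-fold lower, adjusted p = 2.0e-15, edgeR) and in ME (-1.58 ± 0.09, 2.98-fold lower, adjusted p = 4.5e-15, edgeR). Its partner B2m, which encodes beta-2 microglobulin and also serves MHC class I, averaged 1368 ± 59.98 CPM in BN1, 610.1 ± 23.6 CPM in MA9 and 634 ± 22.4 CPM in ME, against 1045 ± 6.20 CPM in WT (SD, n = 3 each). B2m rose by 0.39 ± 0.04 in BN1 (adjusted p = 6.7e-09, edgeR) and fell in MA9 (-0.78 ± 0.04, adjusted p = 3.0e-15, edgeR) and in ME (-0.72 ± 0.04, adjusted p = 1.6e-14, edgeR).

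**Figure D1:**
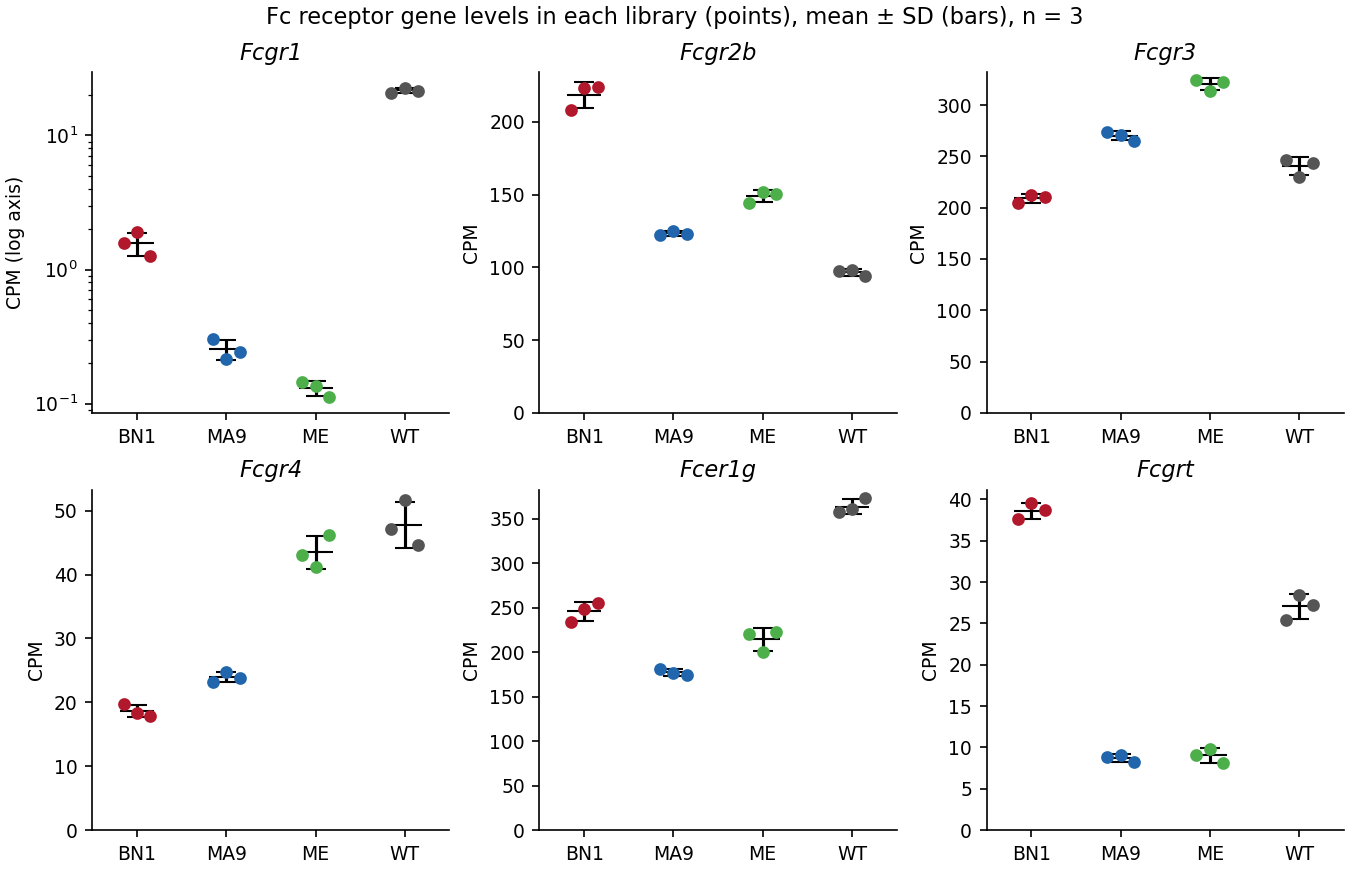
CPM of the 6 Fc receptor genes in each library (points), with the mean and SD of 3 libraries (bars), for BN1, MA9, ME and WT; the axis of Fcgr1 is logarithmic and the others start at 0. Fcgr2b and Fcgrt are highest in BN1, Fcgr1 and Fcer1g are highest in WT, and Fcgr3 is highest in ME.

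In all, 6 of 6 genes were called in BN1 against WT, 6 in MA9 against WT and 5 in ME against WT, where the shares called among all tested genes were 79.2%, 80.1% and 79.2%. Counts of called genes near these backgrounds say little about the Fc receptors as a set, and the sizes and directions of the changes are the result. In each comparison with WT 2 genes were higher, against 4 lower in BN1 and MA9 and 3 lower in ME. All tested genes were 38.4% higher and 40.8% lower in BN1, 39.3% and 40.8% in MA9, and 39% and 40.2% in ME. The median absolute log2 fold change of the 6 genes was 0.87 in BN1, 1.02 in MA9 and 0.69 in ME, beside 0.71, 0.75 and 0.72 over all tested genes. Against a 1.5-fold minimum, tested with edgeR, 3 genes were called in BN1 (Fcgr1, Fcgr2b and Fcgr4), 4 in MA9 (Fcgr1, Fcgr4, Fcer1g and Fcgrt) and 3 in ME (Fcgr1, Fcer1g and Fcgrt). With this minimum 7059, 7332 and 7115 of all 15334 tested genes were called in BN1, MA9 and ME. These comparisons share the WT libraries.

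The leukemias were next compared with each other. All 6 genes were called in BN1 against MA9 and all 6 in BN1 against ME, with 67.7% and 64.7% of all tested genes called. In both comparisons Fcgr1, Fcgr2b, Fcer1g and Fcgrt were higher in BN1, and Fcgr3 and Fcgr4 were lower. Of all tested genes, 32.8% were higher and 34.9% lower in BN1 than in MA9, and 31.8% were higher and 33% lower in BN1 than in ME. Fcgrt was 4.42-fold higher in BN1 than in MA9 (2.14 ± 0.09, adjusted p = 4.0e-18, edgeR) and 4.26-fold higher than in ME (2.09 ± 0.09, adjusted p = 8.5e-18, edgeR). Of all tested genes, 87.8% and 88.5% had a smaller absolute change in these comparisons. Fcgr1 was higher in BN1 by 2.605 ± 0.30 than in MA9 (adjusted p = 1.7e-08, edgeR) and by 3.51 ± 0.35 than in ME (adjusted p = 1.3e-09, edgeR).

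Fcgr2b was higher in BN1 by 0.83 ± 0.05 than in MA9 (adjusted p = 2.4e-15, edgeR) and by 0.55 ± 0.04 than in ME (adjusted p = 1.5e-11, edgeR). Fcer1g was higher in BN1 by 0.47 ± 0.05 than in MA9 (adjusted p = 1.2e-09, edgeR) and by 0.20 ± 0.05 than in ME (adjusted p = 0.00067, edgeR). The activating receptor Fcgr4 differed by -0.36 ± 0.08 in BN1 against MA9 (adjusted p = 0.00015, edgeR) and by -1.22 ± 0.07 against ME (adjusted p = 2.4e-14, edgeR). Fcgr3 differed by -0.37 ± 0.04 in BN1 against MA9 (adjusted p = 1.45e-08, edgeR) and by -0.61 ± 0.04 against ME (adjusted p = 5.2e-13, edgeR). Against a 1.5-fold minimum, Fcgr1, Fcgr2b and Fcgrt were called in BN1 against MA9, and Fcgr1, Fcgr4 and Fcgrt in BN1 against ME. With this minimum 4357 and 3898 of all 15334 tested genes were called against MA9 and ME.

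Between the MLL leukemias 4 of the 6 genes were called, all lower in MA9, where 40.6% of all tested genes were called, 20.2% higher and 20.4% lower in MA9. Of the called genes at large, 49.7% were higher in MA9, and 60.8% with library totals alone as the scale. Fcgr4 showed the largest called difference (-0.86 ± 0.07, adjusted p = 9.2e-11, edgeR) and was the only one of the 6 called against a 1.5-fold minimum. With this minimum 1831 of all 15334 tested genes were called. Fcgr2b differed by -0.27 ± 0.05, Fcgr3 by -0.25 ± 0.04 and Fcer1g by -0.27 ± 0.05 (adjusted p of 1.7e-05 to 3.2e-05, edgeR). For Fcgrt the difference between MA9 and ME was -0.05 ± 0.10 (95% interval -0.26 to 0.16, adjusted p = 0.73, edgeR). For Fcgr1 it was 0.90 ± 0.54 (95% interval -0.20 to 2.01, adjusted p = 0.22, edgeR), which was not detectable at 16 against 8 counts although the libraries did not overlap. Its ratio of counts was 1.91 (95% counting interval 0.77 to 5.15).

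**Figure D2:**
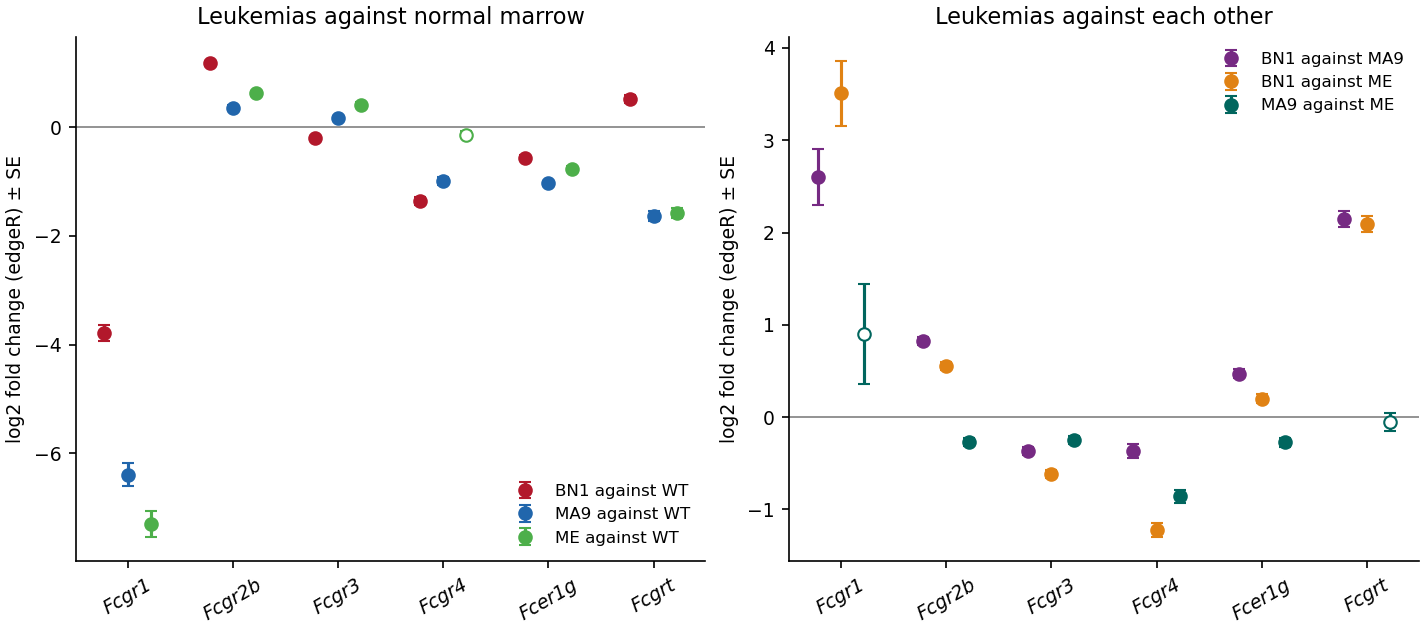
Log2 fold changes (edgeR) ± SE of the 6 Fc receptor genes in each leukemia against WT (left) and between leukemias (right); filled points are called at an adjusted p under 0.05 and open points are not. Fcgrt lies above 0 in BN1 against WT and below 0 in MA9 and ME against WT, and Fcgr1 lies at -3.79, -6.40 and -7.30. The bars of Fcgr1 understate its error where MA9 or ME is compared, since its counts there are few.

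The 4 Fc gamma receptors were then set side by side per length of transcript, in CPM per kb of coding-transcript exons (GENCODE M21). The summed level was 201 ± 4.23 CPM per kb in BN1, 217 ± 2.76 in MA9 and 270.4 ± 4.61 in ME, against 219 ± 2.98 in WT (SD, n = 3 each). Fcgr2b made up 27.8% to 29.0% of that sum across BN1, 14.6% to 15.1% across MA9 and 14.0% to 15% across ME, against 11.3% to 11.9% in WT. Fcgr3 made up 63.7% to 63.9% across BN1, 76.0% to 76.9% across MA9 and 72.2% to 73.4% across ME, against 65.2% to 68.6% in WT. Thus the inhibitory receptor held its highest share in the BN1 libraries, without overlap with any other group. Fcgr1 gave at most 0.357% in BN1, 0.0532% in MA9 and 0.0207% in ME, against 3.61% to 4.04% in WT. Fcgr4 gave 7.03% to 7.97% across BN1, 8.43% to 9% across MA9 and 12.3% to 13.4% across ME, against 16.3% to 18.9% in WT. These shares depend on the length used, since the 4 annotated coding transcripts of Fcgr2b run from 1084 to 3544 bases. With the median coding transcript as the length, a choice made after seeing the data, Fcgr2b made up 45.3% in BN1, 26.7% in MA9 and 26.2% in ME, against 21.8% in WT.

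**Figure D3:**
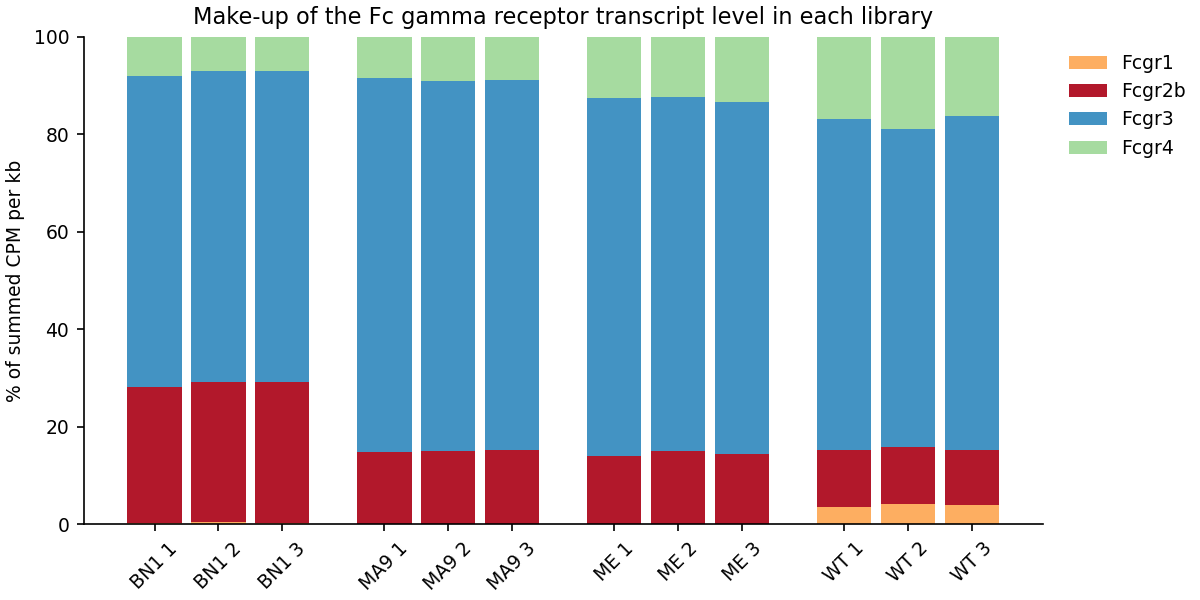
Share of each Fc gamma receptor gene in the summed CPM per kb of Fcgr1, Fcgr2b, Fcgr3 and Fcgr4, one bar per library. The Fcgr2b share is 27.8% to 29.0% in BN1 and at most 15.1% in any other library, and Fcgr1 is visible mainly in WT.

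Ratios within a library do not depend on its scale. The ratio of Fcgr3 counts to Fcgr2b counts was 0.982, 0.951 and 0.940 in BN1, 2.24, 2.17 and 2.16 in MA9, and 2.25, 2.07 and 2.14 in ME, against 2.53, 2.35 and 2.59 in WT. BN1 libraries thus gave slightly fewer counts of the activating than of the inhibitory gene, and every other library gave more than 2 counts of Fcgr3 per count of Fcgr2b. These counts are not corrected for length. Per kb of coding-transcript exons Fcgr3 stayed above Fcgr2b in BN1 (128 against 57.4 CPM per kb). With the median coding transcript as the length their BN1 shares were closer, at 49.8% and 45.3%. The mean log2 ratio was lower in BN1 than in WT by 1.38 (-1.38), than in MA9 by 1.19 (-1.19) and than in ME by 1.17 (-1.17). An exact two-sided permutation test of 3 against 3 libraries cannot go below 0.1, and it gave p = 0.1 for each (0.12 adjusted over the 6 pairs of groups). MA9 and ME overlapped, with a difference of 0.03 (exact permutation p = 0.5).

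The ratio of Fcgr3 to Fcgr4, both activating, was 10.4 to 11.7 across BN1, 10.9 to 11.8 across MA9 and 6.98 to 7.62 across ME, against 4.46 to 5.46 in WT. BN1 and MA9 overlapped (difference -0.01 on the log2 scale, exact permutation p = 0.9). Every other pair of groups was separate at p = 0.1, the smallest value the exact test allows. Tyrobp encodes DAP12, another ITAM adaptor of myeloid and NK cells, and its ratio to Fcer1g was 2.67 to 2.76 across BN1, 2.02 to 2.24 across MA9 and 1.77 to 1.90 across ME, against 1.67 to 1.83 in WT. For this adaptor ratio only ME overlapped WT (difference 0.07 on the log2 scale, exact permutation p = 0.3), and BN1 lay above all other groups. Fcgr3 and Fcgr2b have similar sequences, and 166 of the 1733 distinct 50-base windows of Fcgr3 transcripts (9.58%) also occur in Fcgr2b transcripts. At 100 bases the share was 2.54%. The sources used here do not say how multi-mapping reads were counted, so small differences between Fcgr2b and Fcgr3 are uncertain.

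The chromosome 1 cluster did not move as a block. Within 100 kb of it RefSeq lists 44 genes, 25 of them tRNA genes and 11 protein-coding, and 10 were tested. In BN1 against WT Fcgr2b rose, Fcgr4 fell (-1.36) and Fcgr3 fell (-0.20), although the starts of Fcgr2b and Fcgr4 lie only 42.9 kb apart. The neighbour of Fcgr2b on its other side, the predicted protein-coding gene Gm39701 (chr1:170945108-170949763), averaged 14.7 CPM in BN1, 2.22 CPM in MA9 and 1.72 CPM in ME, against 3.52 CPM in WT. Gm39701 rose by 2.07 ± 0.16 in BN1 (adjusted p = 1.25e-12, edgeR) and changed by -0.67 ± 0.19 in MA9 (adjusted p = 0.0027, edgeR) and by -1.01 ± 0.20 in ME (adjusted p = 6.1e-05, edgeR). Fcrla, a receptor-like gene of B cells further along, stood at 0.135 CPM in BN1, 0.240 CPM in MA9 and 0.0985 CPM in ME, against 79.9 CPM in WT.

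Beyond the cluster, Sdhc, a subunit of respiratory complex II, rose in all 3 leukemias (0.75 ± 0.05 in BN1, 0.72 ± 0.05 in MA9 and 0.74 ± 0.05 in ME). The stress sensor Atf6 at the opposite edge changed by -0.36 ± 0.05 in BN1 (adjusted p = 3.1e-07, edgeR) and by 0.40 ± 0.05 in MA9 (adjusted p = 4.9e-08, edgeR). In ME its difference from WT was -0.10 ± 0.05 (adjusted p = 0.084, edgeR). The phosphatase Dusp12 rose in MA9 (0.73 ± 0.12, adjusted p = 3.6e-06, edgeR), with differences of 0.11 ± 0.12 in BN1 and 0.18 ± 0.12 in ME that were not called. Cfap126, a gene of cilia, was at 0.70 to 1.22 CPM and was not called in any leukemia against WT, and the B cell gene Fcrlb averaged at most 0.614 CPM in any group.

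**Figure D4:**
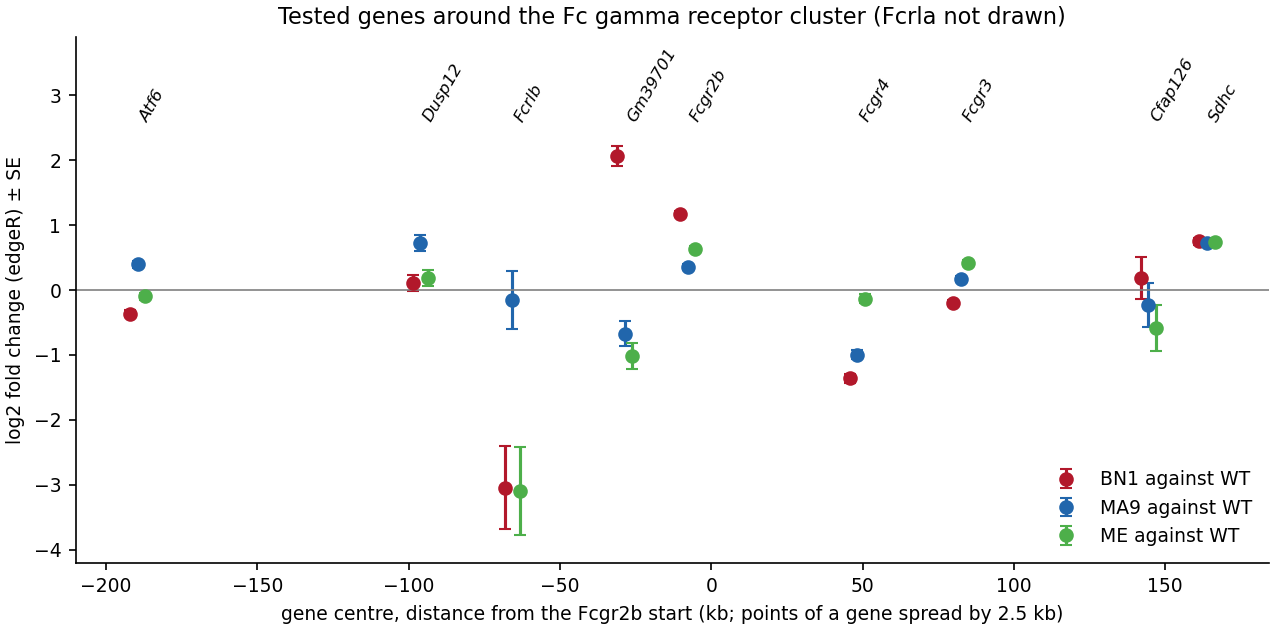
Log2 fold changes (edgeR) ± SE of 9 of the 10 tested genes within 100 kb of the Fc gamma receptor cluster in BN1, MA9 and ME against WT, by distance from the Fcgr2b start; Fcrla, at -9.12, -8.28 and -9.58, is not drawn. In BN1 Fcgr2b and Gm39701 lie above 0 while Fcgr4 and Fcgr3 lie below it.

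Genes with the most similar pattern were named by Pearson correlation of log2 CPM over the 12 libraries, which mostly reflects the 4 group levels. For Fcgr1 they were Btg2 (0.998), an antiproliferative gene, Acvrl1 (0.998) and the receptor gene Lilr4b (0.997). Lilr4b averaged 48.8 CPM in BN1, 12.05 CPM in MA9 and 8.26 CPM in ME, against 411 CPM in WT. For Fcgr2b they were Rnf128 (0.992), a ubiquitin ligase, BC004004 (0.992) and Acbd3 (0.990). Rnf128 averaged 76.3 CPM in BN1, 11.3 CPM in MA9 and 17.4 CPM in ME, against 3.71 CPM in WT.

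For Fcgr3 the nearest patterns were those of Man2a1 (0.989), an enzyme of N-glycan processing, Platr17 (0.985) and Wfdc17 (0.985). For Fcgr4 they were Tsc22d3 (0.989), a glucocorticoid-induced gene, Tagap (0.9845) and Cblb (0.983), a ubiquitin ligase that restrains receptor signals. Cblb averaged 18.4 CPM in BN1, 27.25 CPM in MA9 and 56.5 CPM in ME, against 57.1 CPM in WT. For Fcer1g they were Mtmr14 (0.993), Pbx2 (0.992) and Rab3il1 (0.992). For Fcgrt they were Slc7a7 (0.994), an amino acid transporter, Nectin1 (0.994) and Large (0.992). Among the 6 genes themselves the correlations ran from -0.899 (Fcgr3 with Fcgrt) to 0.932 (Fcgr1 with Fcer1g).

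Genes that surround the Fc receptors in antibody signalling were read from fixed lists. Other Fc receptors and receptor-like genes, many of them of lymphocytes, basophils or epithelia, were mostly lower in each leukemia than in WT. Of 13 such genes 11 were tested, and 11 fell in BN1, 10 in MA9 and 11 in ME, with none higher. The gene not called in MA9 was Fcrlb (-0.15 ± 0.45, adjusted p = 0.76, edgeR). The share of all tested genes called lower was 40.8% in BN1, 40.8% in MA9 and 40.2% in ME. The list's median log2 fold change was -7.19 in both BN1 and MA9 and -7.69 in ME (-5.00 in BN1, -4.64 in MA9 and -6.30 in ME with genes without counts at their bound of 3 counts over a group), beside medians of -0.01 over all tested genes in each comparison. Several of them, such as Fcer1a and Fcmr, passed the filter only through their WT level and so had to differ.

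Fcer1a, the alpha chain of the high-affinity IgE receptor of basophils and mast cells, had no counts in any leukemia library, against 15.1 ± 0.34 CPM in WT, and was at least 366-fold lower in BN1, 321-fold lower in MA9 and 306-fold lower in ME. Fcmr, the IgM receptor of B cells, was 6310-fold lower in BN1 (counting interval 1130 to 249000), 2760-fold lower in MA9 (764 to 22800) and at least 1760-fold lower in ME. Trim21, a cytosolic antibody receptor, had the highest mean CPM of the list in each leukemia, at 16.1 ± 1.65 CPM in BN1, 25.7 ± 0.09 CPM in MA9 and 26.2 ± 0.82 CPM in ME, against 34.8 ± 1.12 CPM in WT. The 8 basophil, eosinophil and mast cell markers, a list that also holds Fcer1a and Ms4a2, summed to 15.7 to 17.4 CPM across BN1, 36.2 to 39.0 CPM across MA9 and 19.8 to 23.0 CPM across ME, against 500.0 to 520.0 CPM in WT.

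Other receptors that pair with the gamma chain were mostly lower in the leukemias. Of 13 listed, 9 were in the table and 7 were tested. In BN1 1 was higher and 5 were lower, and in MA9 and in ME 1 was higher and 6 were lower, where 38.4%, 39.3% and 39% of all tested genes were called higher and 40.8%, 40.8% and 40.2% lower in BN1, MA9 and ME. The median log2 fold change was -2.11 in BN1, -1.32 in MA9 and -1.62 in ME. Ncr1, with 1 count in BN1, 0 in MA9 and 1 in ME, passed the filter only through its WT level and so had to differ. The C-type lectin receptor gene Clec4d averaged 6.44 ± 0.36 CPM in BN1, 6.04 ± 0.86 CPM in MA9 and 11.3 ± 0.36 CPM in ME, against 79.2 ± 3.47 CPM in WT. Clec4e, the lectin receptor Mincle, averaged 26.4 ± 2.09 CPM in BN1, 48.2 ± 3.29 CPM in MA9 and 48.8 ± 2.29 CPM in ME, against 61.2 ± 4.22 CPM in WT. Pira6 rose (1.28 ± 0.15 in BN1, 0.95 ± 0.16 in MA9 and 0.92 ± 0.16 in ME), but the Pira genes resemble each other closely, so their separate levels are uncertain.

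Among 6 other signalling adaptors and chains, not all of which carry an ITAM, 5 fell in BN1 and all 6 in MA9 and in ME. Their median log2 fold changes were -7.74 in BN1, -4.17 in MA9 and -6.98 in ME. Of all tested genes, 40.8%, 40.8% and 40.2% were called lower in these comparisons. The medians lie among the fold changes of lymphocyte genes, most of which were near 0 in the leukemias. Cd79a was at no more than 0.5 CPM on average, and Cd3e had 1 count in BN1, 3 in MA9 and 2 in ME. The exception was Cd79b in MA9, at 17.65 CPM, whose fold change of -3.65 lies next to the MA9 median. Genes such as Cd3e passed the filter only through their WT level and so had to differ. The fold changes of Tyrobp and Hcst, the other members, lay between -0.81 and 0.08. Tyrobp, the myeloid member, averaged 665 ± 17.3 CPM in BN1, 371 ± 16.65 CPM in MA9 and 389 ± 8.22 CPM in ME, against 630.4 ± 31.3 CPM in WT. It was higher in BN1 by 0.84 ± 0.05 than in MA9 (adjusted p = 2.4e-15, edgeR) and by 0.78 ± 0.05 than in ME (adjusted p = 1.8e-14, edgeR). Cd79b, a signalling chain of the B cell receptor, was at 17.65 ± 0.67 CPM in MA9 and at 0.354 ± 0.12 CPM in ME, a difference of 5.585 ± 0.17 (adjusted p = 1.0e-20, edgeR). The ME level of Cd79b rests on 22 counts, so this SE is likely too small. Its partner Cd79a averaged 0.364 ± 0.05 CPM in MA9 and 0.5 ± 0.10 CPM in ME.

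The 27 activating signal genes were all tested and moved both ways. In BN1 7 rose and 17 fell, in MA9 7 rose and 17 fell, and in ME 8 rose and 16 fell, with medians of -0.27, -0.56 and -0.55. Of all tested genes, 38.4% were higher and 40.8% lower in BN1, 39.3% and 40.8% in MA9, and 39% and 40.2% in ME. Fgr, a Src-family kinase of phagocytes, averaged 126 ± 5.27 CPM in BN1, 17.75 ± 0.92 CPM in MA9 and 48.3 ± 3.06 CPM in ME, against 342 ± 3.21 CPM in WT. It was higher in BN1 by 2.82 ± 0.06 than in MA9 (adjusted p = 6.9e-25, edgeR) and by 1.38 ± 0.05 than in ME (adjusted p = 7.3e-19, edgeR). Fyn and the adaptor Lat, which T and NK cells also use, fell in each leukemia (for Fyn -4.58 ± 0.12 in BN1, -5.11 ± 0.13 in MA9 and -6.93 ± 0.16 in ME). The 7 T cell markers summed to at most 1.98 CPM in any leukemia library, against 167 to 183 CPM in WT. Whether this has a part in the fall of Fyn and Lat was not tested.

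Vav3, an exchange factor for small GTPases, rose in all 3 leukemias (0.68 ± 0.05 in BN1, 0.57 ± 0.05 in MA9 and 0.78 ± 0.05 in ME). Card9, an adaptor downstream of Syk, rose as well (0.48 ± 0.05 in BN1, 0.67 ± 0.05 in MA9 and 0.74 ± 0.05 in ME). Syk itself, which binds the phosphorylated gamma chain, averaged 245 ± 4.03 CPM in BN1, 306 ± 10.1 CPM in MA9 and 291 ± 5.92 CPM in ME, against 661 ± 9.17 CPM in WT, and was named after its values were seen. Between the leukemias 13 genes of the list were higher and 12 lower in BN1 against MA9, and 11 were higher and 10 lower in BN1 against ME. All tested genes divided about as evenly, with 32.8% higher and 34.9% lower against MA9 and 31.8% higher and 33% lower against ME.

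Of the 12 inhibitory signal genes, 1 rose and 9 fell in BN1, 2 rose and 8 fell in MA9, and 2 rose and 7 fell in ME, with medians of -0.996, -0.51 and -0.43, where 38.4%, 39.3% and 39% of all tested genes were higher and 40.8%, 40.8% and 40.2% lower. The inhibitory receptor gene Lilrb4a averaged 202 ± 11.7 CPM in BN1, 43.1 ± 4.36 CPM in MA9 and 41.0 ± 1.498 CPM in ME, against 686 ± 44.9 CPM in WT. It was higher in BN1 by 2.23 ± 0.06 than in MA9 (adjusted p = 2.0e-20, edgeR) and by 2.30 ± 0.06 than in ME (adjusted p = 1.6e-20, edgeR). Pirb averaged 192 ± 0.30 CPM in BN1, 112 ± 4.22 CPM in MA9 and 195 ± 13.8 CPM in ME, against 753 ± 39.7 CPM in WT. Inpp5d, the phosphatase that Fcgr2b recruits, averaged 242 ± 3.46 CPM in BN1, 345 ± 11.1 CPM in MA9 and 321 ± 11.8 CPM in ME, against 313 ± 2.61 CPM in WT. It fell in BN1 (-0.37 ± 0.04, adjusted p = 7.5e-09, edgeR) and rose in MA9 (0.14 ± 0.04, adjusted p = 0.0044, edgeR), and its difference in ME was 0.03 ± 0.04 (adjusted p = 0.47, edgeR). Its relative Inppl1 rose in MA9 (0.87 ± 0.07, adjusted p = 1.8e-11, edgeR) and in ME (0.43 ± 0.08, adjusted p = 1.0e-05, edgeR).

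Of the 6 genes for the FcRn partner and its recycling route, 2 rose and 1 fell in BN1, 1 rose and 3 fell in MA9, and 4 fell in ME with none higher. Their medians were 0.13 in BN1, -0.38 in MA9 and -0.43 in ME. Of all tested genes 38.4%, 39.3% and 39% were higher and 40.8%, 40.8% and 40.2% lower. In BN1 against MA9 4 were higher and none lower, and in BN1 against ME 5 were higher and none lower, where 32.8% and 31.8% of all tested genes were called higher. B2m was higher in BN1 by 1.17 ± 0.04 than in MA9 (adjusted p = 7.3e-19, edgeR) and by 1.11 ± 0.04 than in ME (adjusted p = 2.6e-18, edgeR). Rab11a, a GTPase of recycling endosomes, averaged 56.6 ± 3.86 CPM in BN1, 37.6 ± 2.41 CPM in MA9 and 44.3 ± 3.08 CPM in ME, against 62.4 ± 5.97 CPM in WT. The endosomal adaptor Appl1 rose in BN1 (0.44 ± 0.07, adjusted p = 1.1e-06, edgeR) and in MA9 (0.23 ± 0.07, adjusted p = 0.0028, edgeR).

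**Figure D5:**
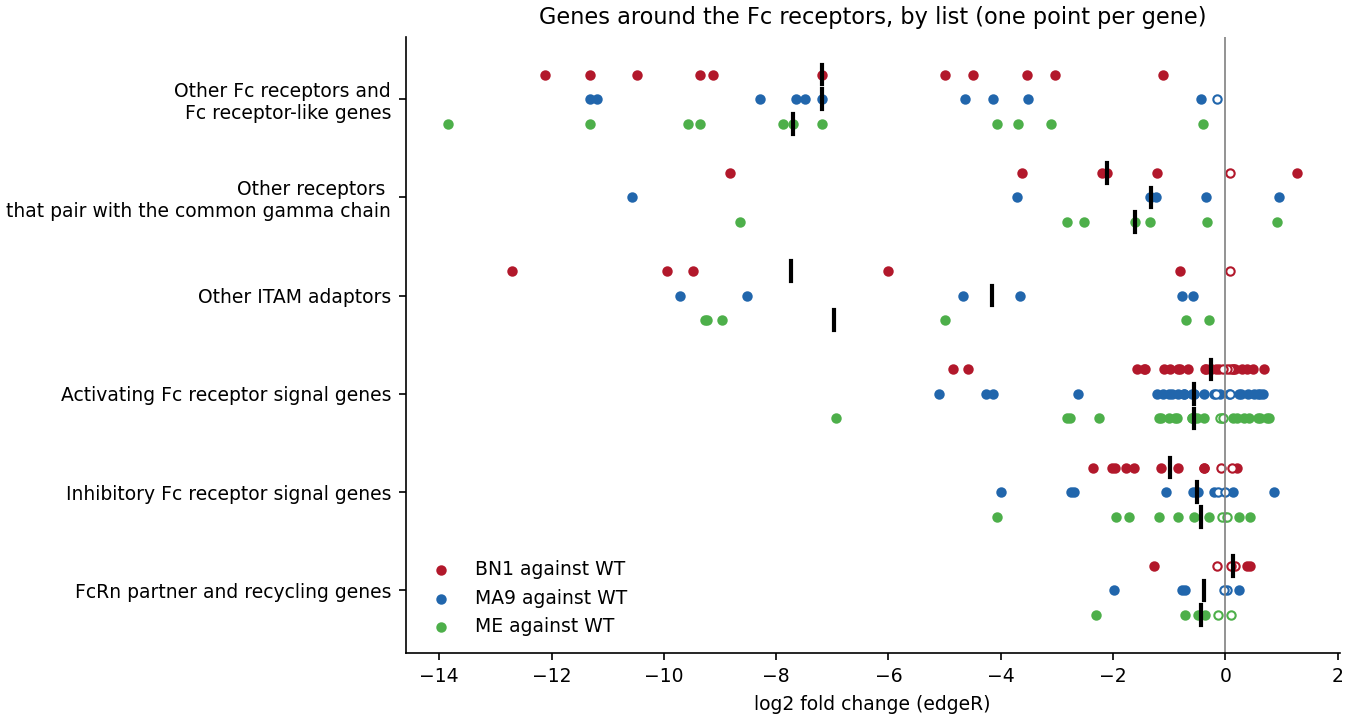
Log2 fold changes (edgeR) of the tested genes of 6 lists in BN1, MA9 and ME against WT; filled points are called at an adjusted p under 0.05, open points are not, and black bars mark list medians. Fitted values of genes without counts in a leukemia, such as Fcer1a, depend on the model and are not bounds. Other Fc receptor genes lie far below 0, while the activating signal genes spread on both sides.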

How the data were processed

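Raw counts per gene of 12 libraries were used as deposited, and those whole-number counts carry no normalisation by the authors. HISAT2, featureCounts and DESeq2 and the build mm10 are named in the submitters' processing notes, without versions. Per the labels, libraries were made from polyadenylated RNA with a stranded kit. The sources used here do not state the strand setting, the annotation release or the handling of multi-mapping reads. The authors' counts were filtered with filterByExpr (15334 of 35976 genes kept), scaled with TMM (factors 0.928 to 1.051) and fitted in 1 edgeR quasi-likelihood model of the 4 groups without covariates (prior degrees of freedom 18.61, residual 8). Calls used an adjusted p under 0.05 in 6 comparisons. Fc receptor genes and lists were chosen with earlier results of these data known. Named genes were the 6 members, the 3 best correlated genes of each (12 libraries, prior count 2), up to 3 called genes per list, direction and comparison with at least 5 CPM, chromosome 1 neighbours, B2m and Tyrobp. Similar genes left out symbols of predicted genes. The choice to name Syk, Ms4a2, Ptprc, LOC101056014 and Lars2 was made after seeing their values. Values of some list genes are not reported here. Ratios had 0.5 added to counts. Promoter sequences and positions came from RefSeq, and lengths and transcript windows from GENCODE M21. No 2 libraries of a group were duplicates (mean chi-square 2.005 to 35.22, the highest for pairs with ME replicate 3). The fit was tested on simulated data. Fits used edgeR 4.0.16 under R 4.3.3, with limma 3.58.1 and DESeq2 1.42.0 as alternatives. Tables and exact tests were made with scipy 1.17.1, numpy 2.4.6 and pandas 2.3.3 (Python 3.11.15), and plots with matplotlib 3.10.9.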

Additional observations from a re-analysis of the deposited data

Results flagged for a closer look

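Fcgrt went up in BN1 and down in both MLL leukemias relative to WT, and the direct tests between leukemias gave 2.14 against MA9 and 2.09 against ME on the log2 scale (edgeR). Fcgr3 went down in BN1 and up in both MLL leukemias, and the direct tests gave -0.37 against MA9 and -0.61 against ME. The Fcgr3 differences are small, and none passed a 1.5-fold minimum. Groups of 3 libraries are too small for the test of single outlying values, but ME replicate 3 stood apart in its counts, and without it the value against ME was 2.02 for Fcgrt and -0.61 for Fcgr3.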

How the results depend on the processing

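Across 36 fold changes of the 6 genes and all alternatives but the 1.5-fold minimum, 783 of 791 values kept their direction and their side of the threshold. The exceptions were Fcgr3 in BN1 against WT with library totals alone (-0.0758), Fcgr4 in ME against WT with RLE size factors (-0.20), DESeq2 (-0.20) and the filter at 1 CPM (-0.15), Fcgr4 in ME with a library left out (-0.18 to -0.078, called without WT or ME replicate 3), and Fcgrt in MA9 against ME, which changed sign with library totals alone (0.00471) and over left-out libraries (-0.12 to 0.014, positive without ME replicate 2); the cause was not tested. Library totals alone shifted the median of all genes by 0.12 in BN1, 0.17 in MA9 and 0.12 in ME against WT.

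Against a 1.5-fold minimum 16 calls were lost: Fcgr3 in BN1, MA9 and ME against WT (-0.20, 0.17 and 0.41), in BN1 against MA9 and ME (-0.37 and -0.61) and in MA9 against ME (-0.25); Fcer1g in BN1 against WT, MA9 and ME (-0.56, 0.47 and 0.20) and in MA9 against ME (-0.27); Fcgr2b in MA9 and ME against WT (0.35 and 0.62), BN1 against ME (0.55) and MA9 against ME (-0.27); Fcgrt in BN1 against WT (0.52); and Fcgr4 in BN1 against MA9 (-0.36). Called members then numbered 3 in BN1 against WT, 3 in ME against WT, 3 in BN1 against MA9, 3 in BN1 against ME and 1 in MA9 against ME. All called genes numbered 7059, 7332 and 7115 in BN1, MA9 and ME against WT (12146, 12284 and 12152 without the minimum), 4357 and 3898 in BN1 against MA9 and ME (10375 and 9927), and 1831 in MA9 against ME (6225). Fcgr1 in MA9 against ME failed the filter when only these libraries were fitted.

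Libraries with the same replicate number did not deviate together (correlations -0.081 to 0.062 over 18 pairs). A pairing without a shared effect would look the same, so this cannot show whether the numbers pair the samples. The labels do not tie the numbers across groups. With the replicate number as a block, all 36 calls were as before, Fcgrt in BN1 against MA9 for instance standing at 2.15. The 8 counts of Fcgr1 in ME limit its precision most.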
